A study of Mus musculus with 18 samples.

Results

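The 37 genes described here are type I interferon-stimulated genes, meaning genes whose transcription rises when a cell senses an interferon of the alpha or beta family. They were taken by symbol from a list of known interferon targets, by a rule with no threshold on these counts, although earlier results of these data were known when the list was made. All 37 had a row in both deposited count tables, which hold 38924 gene identifiers for the males and 23337 gene symbols for the females. All 37 also carried enough reads to be tested in every comparison, with the lowest single count at 143 for Oas1a in a male, 59 for Mx1 in a female and 20 for Ifit3 in a recipient.

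Liver RNA was sequenced from 18 mice killed at 8 weeks of age, with 3 mice in each of 6 groups and a high-fat diet (45% of kcal as fat) shared by every group. In the first experiment, C57BL6J mice, an inbred strain, either had no antibiotic or received low-dose penicillin (LDP) from birth, were weaned at week 4 and began the high-fat diet at week 6. The males were 5, 6 and 7 without the drug and 8, 10 and 11 with it, and the females 29, 30 and 32 without and 39, 52 and 54 with it. The transfer experiment used Germ-free Swiss Webster mice, an outbred stock in which no mouse is a genetic copy of another. Their females were colonised at week 3 with the gut microbes of control females (recipients 1, 3 and 7) or of LDP females (recipients 2, 5 and 8), and had no further antibiotic. The 3 comparisons share no control mice. Cage, litter and donor are not stated, so p-values measure only the spread between these mice. The labelled tissue matched its defining marker, since Alb, which encodes albumin, reached at least 57449 CPM (counts scaled to library size) in each library. Male libraries held 70336366 to 74418889 counts and female libraries 17937005 to 28646168, so values in females and recipients carry more counting error.

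Type I interferons are small secreted proteins that bind the receptor pair IFNAR1 and IFNAR2 on nearly all cells, which activates the kinases JAK1 and TYK2. The kinases phosphorylate STAT2, which joins IRF9 in a complex that enters the nucleus and binds a short DNA element, the interferon-stimulated response element, in front of the target genes. In the liver, Kupffer cells, sinusoidal endothelial cells and hepatocytes can all answer interferon, and microbial products arriving in portal blood are among the known triggers of its production. A low level of these transcripts is also present without infection and is known as tonic interferon signalling.

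The response element is built on repeats of GAAA, and it is shown here because it is a feature that the choice of genes by name did not use. RefSeq promoters on GRCm38.p6, each running from 250 bases before to 50 after a transcription start, were found for 28 of the 37 genes. They were searched on both strands for GAAA, any 2 bases, GAAA, a pattern that also covers part of the sites of other IRF family factors. A gene was counted if any of its promoters held the pattern, whereas the share over the whole reference is per promoter. The pattern was found in 10 of the 28 genes (35.7%), or 10 of their 33 promoters, and in 1131 of all 32851 promoters (3.44%). With C required as the base after the first GAAA, it was found in 7 of the 28 genes (25%). These were 7 of the 33 promoters, against 225 of all promoters (0.685%). The 10 genes were Bst2, Ddx58, Eif2ak2, Ifih1, Ifit1, Ifit3, Isg15, Oas1a, Rsad2 and Stat2, and in 7 of them a match lay before the start. No entry was used for Oas2, Parp14, Zbp1, Dhx58, Rtp4, Usp18, Parp9, Mx1 and Mx2. A match describes the letters and is not a measured binding site.

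The stretches around the 7 upstream matches are printed below, 5′ to 3′ along the gene's own strand, with matches in capitals and 25 bases on each side, cut at the transcription start. The reverse form, with TTTC in place of GAAA, is a match on the opposite strand. Ifit1 (chr19:34640760-34640838, plus strand) and Ifit3 (chr19:34583348-34583441, plus strand) each hold 2 separate matches. Isg15 (chr4:156200850-156200921, minus strand), Bst2 (chr8:71537562-71537627, minus strand) and Oas1a (chr5:120907526-120907570, minus strand) hold matches that run into each other. Rsad2 (chr12:26456538-26456597, minus strand) and Stat2 (chr10:128270251-128270310, plus strand) hold 1 match each, with no C after the first GAAA in Rsad2.
Ifit1: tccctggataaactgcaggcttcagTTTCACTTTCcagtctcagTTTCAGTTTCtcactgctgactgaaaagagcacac
Ifit3: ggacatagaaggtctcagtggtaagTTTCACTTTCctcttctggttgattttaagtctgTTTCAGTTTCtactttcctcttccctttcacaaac
Isg15: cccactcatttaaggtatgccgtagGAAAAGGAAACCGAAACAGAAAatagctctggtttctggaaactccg
Bst2: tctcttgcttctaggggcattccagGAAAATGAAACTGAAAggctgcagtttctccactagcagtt
Oas1a: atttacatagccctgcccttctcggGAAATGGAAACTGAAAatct
Rsad2: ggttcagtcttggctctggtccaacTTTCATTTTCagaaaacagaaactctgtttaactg
Stat2: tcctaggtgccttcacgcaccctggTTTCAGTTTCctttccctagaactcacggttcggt

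The genes lie on 16 chromosomes (GENCODE M21 positions on GRCm38), with a few close neighbours. Rsad2 (chr12:26442746-26456452, minus strand) and Cmpk2 (chr12:26469204-26479837, plus strand) point away from each other, with starts 12.8 kb apart. Ifit2, Ifit3 and Ifit1 follow each other on chromosome 19, with starts 32.8 and 57.3 kb apart. Oasl2 and Oasl1 have starts 26.3 kb apart on chromosome 5, and Mx1 and Mx2 have starts 72.4 kb apart on chromosome 16. Dtx3l and Parp9 overlap on opposite strands of chromosome 16, with starts 681 bases apart, and as strandedness is not stated, reads in the overlap cannot be told apart. Counts of Ifit3, Oas1a and the other members with close paralogs are uncertain, because reads shared between copies may have been split or dropped.

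Levels can be compared between genes only per length, and a gene length is given in the male table alone. In the 3 control males Bst2, a membrane protein that tethers budding virus to the cell, had the highest level at 118 ± 5.92 CPM per kb (SD, n = 3). Next in order were Lgals3bp, a secreted galectin-binding glycoprotein, at 36.5 ± 2.21, the ubiquitin ligase gene Trim25 at 21.7 ± 2.23, Stat2 at 19.5 ± 0.555 and Irf7 at 14.3 ± 0.816 CPM per kb. Bst2 and Lgals3bp did not overlap in any mouse, whereas Trim25 and Stat2 differed by less than the SD of Trim25. Levels then ran closely. Rtp4 (10.9 ± 0.50) and Ifi35 (10.8 ± 0.408) differed by less than their spread, as did Isg15 (10.3 ± 0.335) and Dtx3l (10.3 ± 0.865), while every control had more Rtp4 than any had Isg15. At the low end were Oas1a at 1.63 ± 0.132, Ifi44 at 1.02 ± 0.0684 and Mx1 at 0.992 ± 0.133 CPM per kb, the last 2 again indistinguishable. Mx1 encodes an antiviral dynamin-like GTPase, and C57BL/6 mice are known to carry a defective copy of it.

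**Figure D1:**
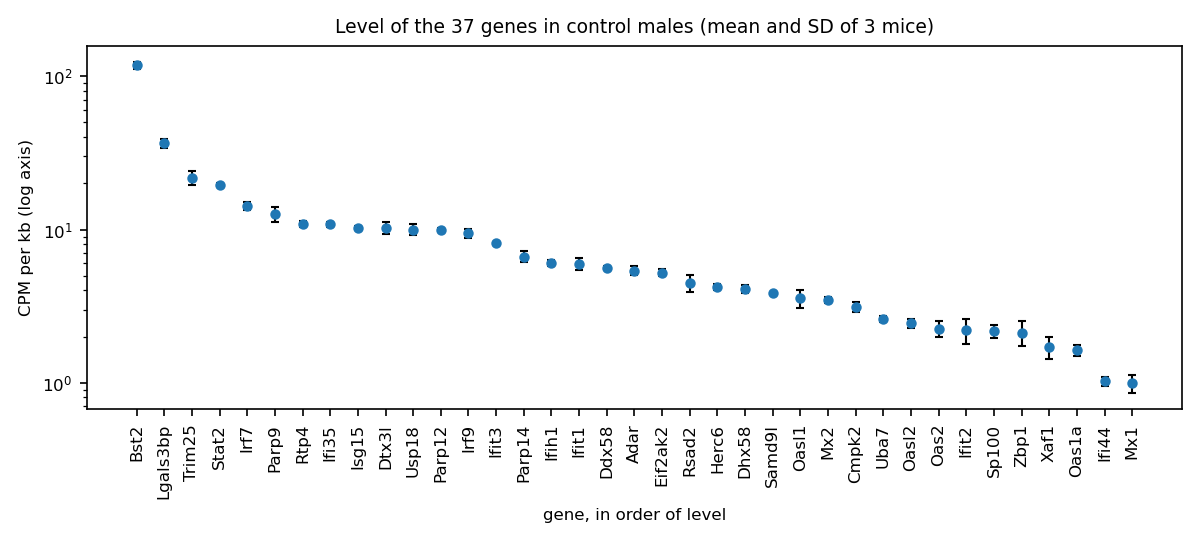
Level of each of the 37 genes in the control males, as CPM per kb of gene length on a log axis, with genes in order of level. Points are means and bars SDs of 3 mice, and the levels span from 118 for Bst2 to 0.992 for Mx1.

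LDP females against control females were the comparison in which these genes stood higher. Of the 37, 36 had a higher fitted level in LDP females and 1, Ifi35, a lower value of -0.02 on the log2 scale, while 50.9% of all 12914 genes tested were higher. The median log2 change of the 37 was 0.27, against 0.003 over all genes, and single genes ran from -0.02 to 0.80. No gene of the genome passed an adjusted p of 0.05 in edgeR's quasi-likelihood test with Benjamini-Hochberg adjustment (0 called, 0%), and DESeq2 called 15 genes. Unadjusted p was under 0.05 for 17 of the 37, all higher, against 2.69% of all genes higher and 1.82% lower. The same number, 17, had all 3 LDP females above all 3 control females and 0 the reverse, where 4.97% of all genes were fully separated upward and 4.15% downward. The adjusted p in that test was 0.591 for Ifit2, Rsad2 and Cmpk2 and 0.999 for the other 34. With 3 mice a side, even groups that do not overlap reach only 0.1 in a two-sided exact permutation test, the lowest value possible here. The 37 genes were measured in the same mice and tended to move together within a mouse. Counts of genes, here and in the other comparisons, are therefore not independent observations.

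The protein IFIT1 binds viral RNA that lacks the host's cap methylation and blocks its translation. All 3 Ifit genes of the set were separated in females. Ifit2 stood at 10.2, 8.08 and 10.5 CPM in control females 29, 30 and 32, and at 16.1, 18.6 and 15.2 CPM in LDP females 39, 52 and 54. Every LDP female was above every control, by 0.80 ± 0.14 (log2 change and approximate SE), with an adjusted p of 0.591 in edgeR's quasi-likelihood test and 0.0101 in DESeq2 (0.0101 to 0.999 over the alternatives). In the same order of mice, Ifit3 was at 21.0, 16.5 and 17.7 against 24.6, 29.8 and 22.7 CPM. The groups were again apart, by a log2 change of 0.49 ± 0.13. Ifit1 was at 18.6, 17.1 and 13.3 against 22.5, 23.9 and 20.3 CPM, also without overlap (0.45 ± 0.14).

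Rsad2 encodes viperin, which makes a chain-terminating ribonucleotide, and its neighbour Cmpk2 encodes a mitochondrial nucleotide kinase that feeds the same reaction. Rsad2 was at 13.8, 10.8 and 14.0 CPM in control females and at 20.1, 20.02 and 20.4 CPM in LDP females. The groups did not overlap and differed by 0.65 ± 0.12 (adjusted p 0.591 in edgeR's quasi-likelihood test and 0.0404 in DESeq2, with 0.0404 to 1.0 over the alternatives). Cmpk2 was at 7.51, 7.02 and 7.06 against 10.2, 12.6 and 11.3 CPM, with the lowest LDP female well above the highest control. Its log2 change was 0.66 ± 0.12 (adjusted p 0.591 in edgeR's quasi-likelihood test and 0.0821 in DESeq2, with 0.0821 to 1.0 over the alternatives). Samd9l, a tRNA-cleaving antiviral factor, had means of 27.7 ± 5.35 and 33.9 ± 2.33 CPM with overlap, since control female 32 reached 33.8 CPM.

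The 2′-5′ oligoadenylate synthetases make a second messenger that switches on RNase L, while the OASL proteins are their relatives. Oas2 was at 12.4, 11.3 and 10.2 CPM in control females and 14.1, 14.1 and 15.7 CPM in LDP females, with no overlap (0.37 ± 0.12). Oasl2 was also separated, with means of 14.6 ± 2.12 and 19.0 ± 1.85 CPM, whereas Oasl1 (0.29 ± 0.16) and Oas1a (0.19 ± 0.18) overlapped. Of the dynamin-like GTPases, Mx1 was at 4.46, 2.96 and 2.90 against 5.45, 5.28 and 4.88 CPM. Its groups were apart, by 0.60 ± 0.19. Mx2, annotated as a polymorphic pseudogene, had means of 6.75 ± 0.124 and 8.54 ± 0.162 CPM, also apart. Bst2 was the gene with the highest level per length in control males. In females its groups overlapped fully, at 150, 113 and 127 against 111, 142 and 159 CPM (0.08 ± 0.15).

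Among the transcription factors, Irf7, the factor that amplifies interferon production, was at 66.2, 47.3 and 57.5 CPM in control females and 68.3, 82.7 and 70.6 CPM in LDP females. The groups did not overlap, although control female 29 came close to the lowest LDP female (0.37 ± 0.14). Irf9 was at 52.1, 47.2 and 43.1 against 50.7, 56.7 and 53.8 CPM, and overlapped because of control female 29 (0.18 ± 0.10). Stat2 was at 82.0, 82.9 and 73.1 against 75.1, 80.5 and 93.8 CPM, and its groups overlapped (0.07 ± 0.11). Of these 3 factors, Irf7 alone was separated between the groups.

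The sensors recognise foreign nucleic acid in the cell and signal to interferon genes. Ifih1, the long double-stranded RNA sensor MDA5, was at 41.0, 46.4 and 41.9 CPM in control females and 54.2, 54.4 and 46.3 CPM in LDP females. LDP female 54 lay just below control female 30, so the groups touched (0.26 ± 0.10). Ddx58, the RNA end sensor RIG-I, was at 40.3, 43.2 and 39.03 against 44.1, 49.3 and 40.7 CPM, and overlapped (0.13 ± 0.10). Dhx58, a regulator of both (0.22 ± 0.12), and the Z-form nucleic acid sensor Zbp1 (0.07 ± 0.29) overlapped too, and Zbp1 was highest of all in control female 29 at 24.1 CPM.

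ISG15 is a ubiquitin-like protein attached to other proteins by the enzymes encoded by Uba7 and Herc6 and removed by USP18, which also shuts off the interferon receptor. Isg15 was at 14.5, 9.13 and 8.97 CPM in control females and 14.4, 15.1 and 12.9 CPM in LDP females. Control female 29 sat among the LDP females, so the groups overlapped (0.39 ± 0.19). Usp18 was at 23.1, 18.4 and 19.1 against 21.1, 28.8 and 26.7 CPM, and overlapped through LDP female 39 (0.34 ± 0.14). Uba7 (0.19 ± 0.10), Herc6 (0.18 ± 0.10) and Trim25 (0.08 ± 0.10) were nearer to 0 and overlapped.

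The remaining members fell into separated and overlapping genes. Eif2ak2, the kinase PKR that stops translation, was separated with means of 19.9 ± 2.05 and 22.6 ± 1.19 CPM, while the RNA-editing enzyme gene Adar (0.23 ± 0.11) overlapped. Of the ADP-ribosyltransferase genes, Parp12 and Parp14 were separated by log2 changes of 0.17 ± 0.09 and 0.27 ± 0.11, and Parp9 and its ubiquitin ligase partner Dtx3l overlapped at 0.17 ± 0.10 and 0.06 ± 0.09. Ifi44 was at 11.2, 9.99 and 10.7 CPM in control females and 12.8, 15.6 and 14.3 CPM in LDP females, without overlap (0.42 ± 0.12). Rtp4 (0.30 ± 0.13), the apoptosis-linked Xaf1 (0.41 ± 0.16) and the nuclear body gene Sp100 (0.32 ± 0.12) were also separated, unlike Lgals3bp (0.07 ± 0.11).

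**Figure D2:**
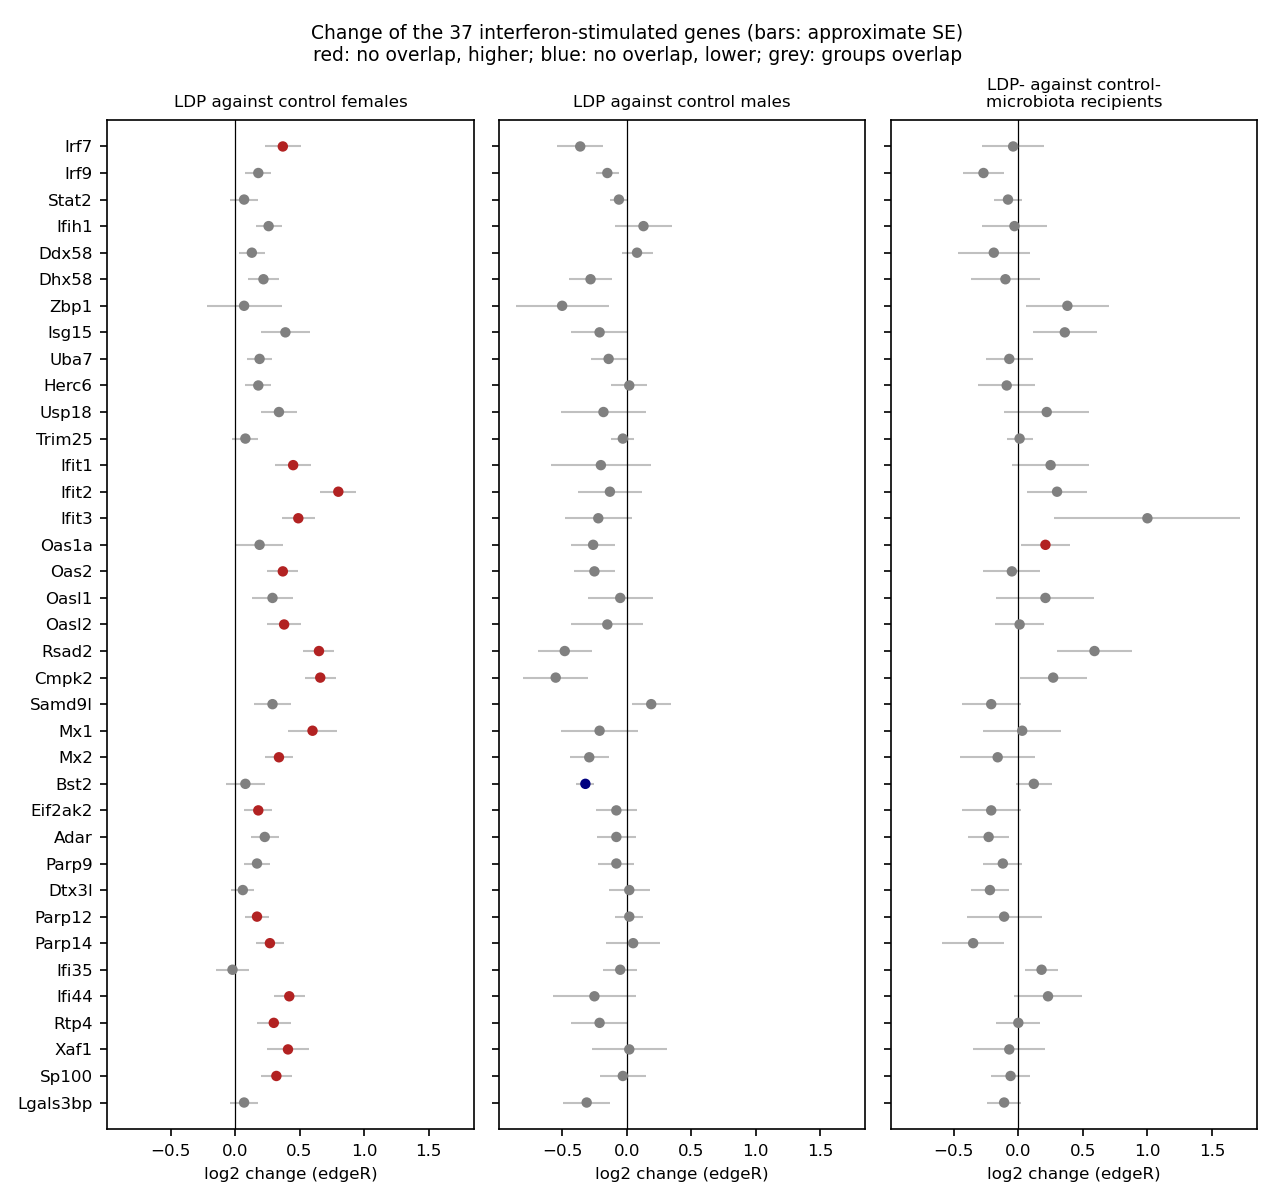
Log2 change of each of the 37 genes in the 3 comparisons (horizontal axis, edgeR, bars approximate SE), with genes in the order of their roles. Red points mark genes whose 3 treated mice are all above the 3 controls, blue those all below, and the females hold 17 red points, the males 1 blue point and the recipients 1 red point.

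The count in females rested in part on 2 mice: without control female 30, 8 of the 37 had an unadjusted p under 0.05, and without LDP female 52, 9 had. Over all removals of a single mouse, 33 to 37 of the 37 were higher and the median ran from 0.22 to 0.31. Over all genes the median was -0.002 without control female 30 and 0.001 without LDP female 52. The share of all genes at an unadjusted p under 0.05 after either removal is not given here, so the 8 and 9 cannot be set against it.

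In males the same genes were not higher under LDP. Of the 37, 8 were higher and 29 lower in LDP males, where 50.7% of all 15438 genes were higher, and the median log2 change was -0.15 (all genes 0.002, range of the set -0.55 to 0.19). Of all genes, 1 passed the adjusted p in edgeR's quasi-likelihood test (0.00648%; Spry4, named after its value was seen), and it is no member. None of the 37 was called by edgeR, 0 had an unadjusted p under 0.05 and higher (3.17% of all genes) and 1, Bst2, under 0.05 and lower (2.06% of all genes), while DESeq2 called Bst2. The adjusted p of the other 36 was 0.92 or more in edgeR's quasi-likelihood test. Bst2 was also the 1 gene of the set whose groups did not overlap, downward (4.84% of all genes), and 0 were separated upward (5.69%).

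Bst2 was at 89.1, 95.2 and 86.4 CPM in control males 5, 6 and 7, and at 68.6, 72.8 and 75.5 CPM in LDP males 8, 10 and 11. All 3 LDP males lay below the lowest control, by a log2 change of -0.32 ± 0.07 (adjusted p 0.871 in edgeR's quasi-likelihood test and 0.036 in DESeq2, with 0.036 to 1.0 over the alternatives). Rsad2 was at 19.9, 16.8 and 21.5 against 13.0, 18.2 and 10.5 CPM. It overlapped through LDP male 10 (-0.48 ± 0.21). Cmpk2 was at 9.66, 9.46 and 10.8 against 6.14, 9.58 and 4.67 CPM, with LDP male 10 again inside the control range (-0.55 ± 0.25).

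Mx2 was at 8.59, 7.94 and 8.55 CPM in control males and 6.98, 8.23 and 5.34 CPM in LDP males, with overlap (-0.29 ± 0.15). Irf7 was at 45.1, 44.0 and 40.4 against 34.0, 42.1 and 24.6 CPM, and only LDP male 10 reached the controls (-0.36 ± 0.18). Irf9 was at 54.3, 47.7 and 50.2 against 45.5, 50.4 and 41.6 CPM, with overlap (-0.15 ± 0.09). In these 3 genes LDP male 11 was the lowest of the 6 mice. Lgals3bp was at 111, 99.2 and 102 against 76.9, 109 and 65.8 CPM, and Dhx58 at 14.1, 12.6 and 13.5 against 11.6, 13.5 and 7.99 CPM. Both overlapped (-0.31 ± 0.18 and -0.28 ± 0.17).

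The pathway's other anchors in males showed the same spread within the treated group. Stat2 was at 88.1, 86.0 and 83.3 CPM in control males and 78.8, 88.9 and 79.9 CPM in LDP males. Isg15 was at 8.01, 7.51 and 7.80 against 6.38, 9.17 and 4.61 CPM. LDP male 10 was the highest of the 3 LDP males for both, and LDP male 11 the lowest for Isg15. Usp18 was at 19.1, 16.2 and 17.7 against 15.6, 22.5 and 8.88 CPM. The sensors Ifih1, at 47.2, 50.9 and 50.1 against 59.8, 65.8 and 36.0 CPM, and Ddx58, at 41.1, 38.5 and 39.7 against 44.2, 48.4 and 33.5 CPM, had 2 LDP males above all controls and LDP male 11 below them. None of these 5 genes was separated between the groups.

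**Figure D3:**
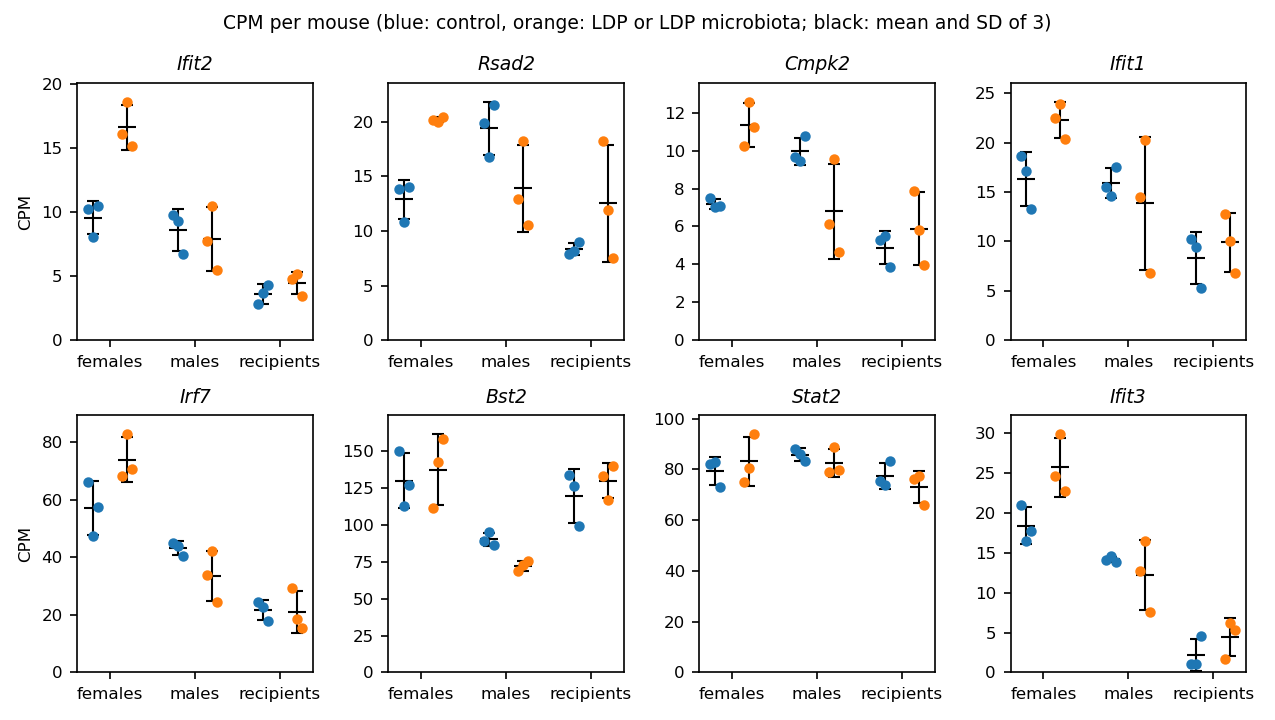
CPM per mouse of 8 genes in females, males and recipients, with controls in blue, LDP mice or recipients of LDP microbiota in orange, and black bars for the mean and SD of 3 mice. Ifit2, Rsad2 and Cmpk2 are separated upward in females, and Bst2 is separated downward in males, while levels in males and females come from separate tables and are not compared.

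The treated males were spread widely. With each gene expressed as log2 of its CPM over the control mean, the median of the 37 was -0.15 in LDP male 8, 0.22 in LDP male 10 and -0.58 in LDP male 11, and between -0.03 and 0.05 in the 3 controls. LDP male 10 was the highest of the 6 males in 24 of the 37 genes, and LDP male 11 the lowest in 33. Without LDP male 11 the comparison turned to 24 higher and 13 lower, a median of 0.03, and 4 genes higher at an unadjusted p under 0.05. Without LDP male 10 it moved to 1 higher and 36 lower, a median of -0.34, and 19 genes lower at an unadjusted p under 0.05. The direction in males therefore rests on LDP male 11. Over all genes, 66 passed the adjusted p in edgeR's quasi-likelihood test without LDP male 11 and 2 without LDP male 10, against 1 with all mice. The share of all genes at an unadjusted p under 0.05 after either removal is not given here, so the 4 and 19 cannot be set against it.

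In females the 3 treated mice lay close together. Their medians were 0.23 (LDP female 39), 0.32 (LDP female 52) and 0.25 (LDP female 54), above the 0.13 of control female 29 and the -0.05 and -0.04 of control females 30 and 32. LDP female 52 was the highest of the 6 in 21 genes and LDP female 54 in 9, and control females 30 and 32 were the lowest in 17 and 13.

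**Figure D4:**
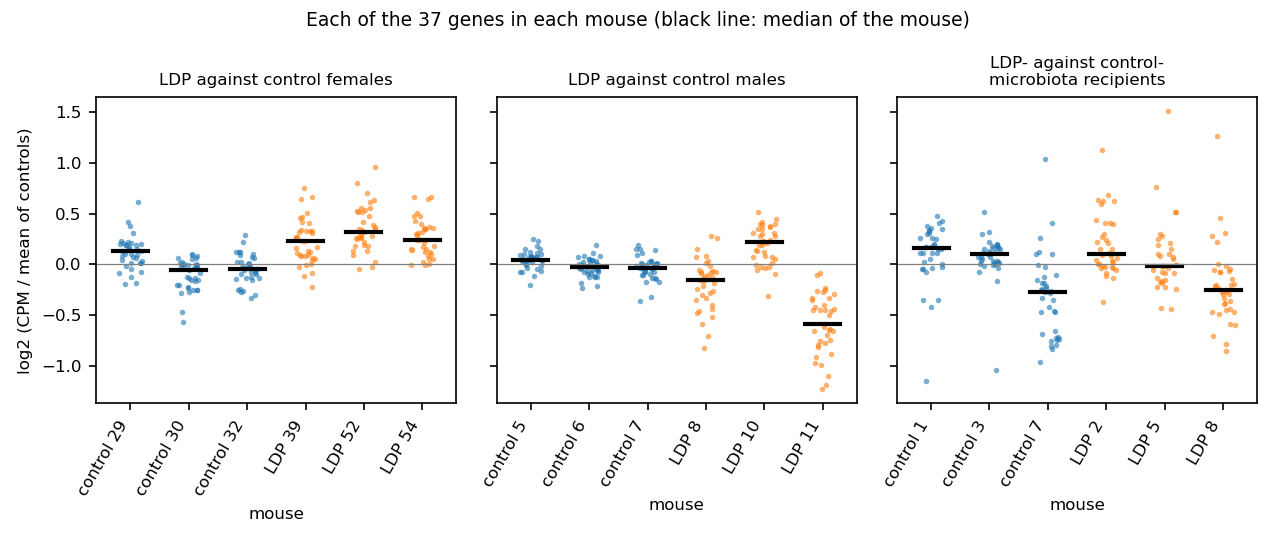
Each of the 37 genes in each mouse, as log2 of its CPM over the mean CPM of the 3 controls of the same comparison, with controls in blue, treated mice or recipients of LDP microbiota in orange and a black line at the median of the mouse. The 3 LDP females have medians from 0.23 to 0.32, whereas the LDP males run from -0.58 to 0.22.

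Germ-free females that received LDP microbiota showed no common direction in these genes. Of the 37, 17 were higher and 20 lower than in recipients of control microbiota (48.4% of all 12780 genes were higher), with a median of -0.04 (all genes -0.008) and a range from -0.35 to 1.0. Over all genes 1 passed the adjusted p in edgeR's quasi-likelihood test (0.00782%; AA465934, named after its value was seen). No member passed it, 0 members had an unadjusted p under 0.05 in either direction, and the background shares were 2.25% higher and 2.86% lower. DESeq2 gave an unadjusted p under 0.05 to 1 member, Rsad2, and gave none of the 37 an adjusted p, because its filter on mean counts set them aside. In edgeR's quasi-likelihood test the adjusted p of the 37 ran from 0.846 to 0.999. Oas1a was the 1 gene with separated groups, upward, at means of 2.96 ± 0.207 and 3.43 ± 0.243 CPM, and 0 were separated downward, where 6.13% and 5.56% of all genes were.

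Rsad2 was at 7.91, 8.16 and 8.95 CPM in control-microbiota recipients 1, 3 and 7, and at 18.2, 11.9 and 7.54 CPM in LDP-microbiota recipients 2, 5 and 8. Recipients 2 and 5 were above all controls and recipient 8 below them (0.59 ± 0.29). Ifit3 was at 0.995, 1.07 and 4.52 against 1.70, 6.25 and 5.27 CPM. Its low and high mice were found in both groups, which gave a large change with a large error (1.0 ± 0.72). Isg15 was at 6.82, 6.29 and 3.42 against 7.31, 6.35 and 7.54 CPM, and overlapped (0.36 ± 0.25).

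Irf9, Parp14, Adar and Dtx3l had lower means and Ifi35 a higher mean in the LDP-microbiota recipients, each with overlap. Irf9 was at 40.1, 43.7 and 35.9 CPM in control-microbiota and 38.9, 34.3 and 26.4 CPM in LDP-microbiota recipients (-0.27 ± 0.16). Parp14 was at 57.9, 45.1 and 32.8 against 41.9, 38.3 and 26.2 CPM (-0.35 ± 0.24). Adar was at 29.7, 29.9 and 22.9 against 26.4, 24.2 and 19.8 CPM (-0.23 ± 0.16). In all 3 genes recipient 8 was the lowest mouse, and recipient 7 was the lowest control. Dtx3l was at 63.4, 57.8 and 54.3 against 55.1, 56.3 and 39.035 CPM (-0.22 ± 0.15), and Ifi35 at 19.8, 23.3 and 17.9 against 22.6, 21.5 and 24.7 CPM (0.18 ± 0.13).

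The remaining anchors also overlapped in recipients. Irf7 was at 24.3, 22.8 and 17.8 CPM in control-microbiota and 29.3, 18.6 and 15.4 CPM in LDP-microbiota recipients. Stat2 was at 75.2, 73.9 and 83.4 against 76.2, 77.3 and 65.8 CPM. These values show no separation by the donor's treatment. Usp18 was at 10.4, 7.49 and 4.52 against 11.5, 8.56 and 6.19 CPM. Ifih1 was at 41.2, 36.3 and 19.8 against 34.7, 32.1 and 28.3 CPM, and Ddx58 at 46.5, 39.9 and 20.6 against 35.8, 31.7 and 26.1 CPM. In these last 3 genes control-microbiota recipient 7 was the lowest of all 6 mice. Over the 37 genes, recipient 7 was the lowest mouse in 19 and LDP-microbiota recipient 8 in 14, with medians of -0.27 and -0.25. The sign of the median changed without control-microbiota recipient 1 (0.05), control-microbiota recipient 3 (0.03) or LDP-microbiota recipient 8 (0.05).

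Whether the LDP effect differed between the female and male comparisons was tested as the difference of the 2 log2 changes. A level cannot be compared across separately deposited tables. Sex, deposited table and library depth all differ between these comparisons and cannot be told apart. All 37 differences were above 0 (female change minus male change), with a median of 0.39 against 0.011 over the 12747 genes tested. They come from the same mice and are not 37 independent observations. Of the 37, 11 had an unadjusted p under 0.05 in that direction (1.48% of all genes) and 0 in the other (1.22%). None passed the adjustment in edgeR's quasi-likelihood test, nor did any other gene (0%), and DESeq2 called 1 gene, no member. The difference was 1.14 ± 0.25 for Rsad2, 1.22 ± 0.29 for Cmpk2 and 0.63 ± 0.19 for Mx2. It was 0.75 ± 0.24 for Irf7, 0.93 ± 0.30 for Ifit2 and 0.63 ± 0.21 for Oas2, and the other 5 were Irf9, Dhx58, Ifit3, Bst2 and Mx1. The number fell to 6 without control male 5, LDP male 8 or LDP female 52, and to 7 without control male 7, control female 30 or control female 32. The share of all genes at such a p after any removal of a mouse is not given here, so these counts cannot be set against it. Without LDP male 11, 32 of the 37 differences were above 0, the median was 0.23 and 8 had an unadjusted p under 0.05. Without LDP male 10 the median was 0.60, 25 had an unadjusted p under 0.05, and Cmpk2 alone passed (1.53, adjusted p 0.0434 in edgeR's quasi-likelihood test, which ranged from 0.0434 to 1.0 over the alternatives).

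**Figure D5:**
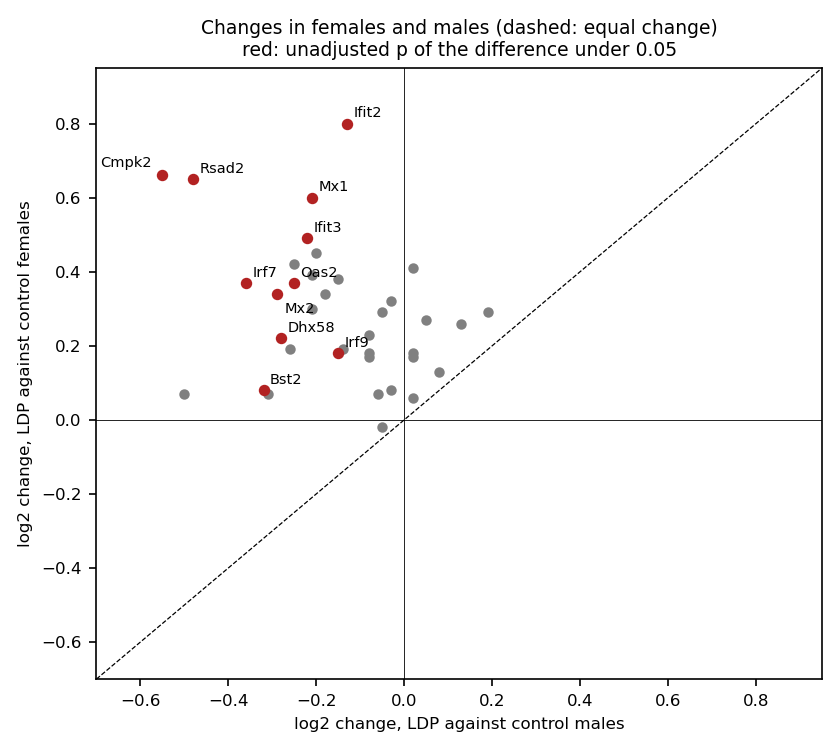
Log2 change under LDP in females (vertical axis) against that in males (horizontal axis), 1 point per gene, with a dashed line where both are equal. Points in red have an unadjusted p under 0.05 for the difference, and all 37 genes lie above the dashed line.

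The change in LDP females was set against that in recipients in the same way over the 12 female libraries. Of the 37 differences, 32 were above 0 and 5 below, with a median of 0.28 against -0.003 over the 13295 genes tested. Irf9 (0.43 ± 0.19) and Adar (0.45 ± 0.19) had an unadjusted p under 0.05 in that direction (2.95% of all genes), and 0 in the other (2.99%). That count rests on single mice, since it was 12 without control-microbiota recipient 7, 9 without LDP-microbiota recipient 2, 4 without LDP female 39, 1 without control female 32 or LDP-microbiota recipient 5, and 0 without control female 30, LDP females 52 or 54, control-microbiota recipient 3 or LDP-microbiota recipient 8. The median ran from 0.10 to 0.42 over these removals, and the share of all genes at such a p after each of them is not given here. No gene passed the adjustment in edgeR's quasi-likelihood test (0%), and DESeq2 called 12 genes, none of them a member. Strain, microbial history and drug exposure all differ between these experiments and cannot be told apart.

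The interferons themselves were at the edge of detection. Of 17 interferon genes in the male table, 13 had 0 counts in all 6 males, and no gene exceeded 8 counts in a mouse. Of 19 in the female table, 17 were at 0 in all 6 C57BL6J females and 18 in all 6 recipients. Ifnb1, the gene of interferon beta, had 2 counts in LDP male 10 and 0 in every other mouse, and a count of 0 allows up to 3 counts at these depths. No interferon gene could be tested, so a difference in ligand transcripts was not detectable at this depth.

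Of 10 receptor, kinase and STAT genes, 9 had enough counts to be tested. The tenth, the interferon lambda receptor gene Ifnlr1, had 10, 5 and 5 counts in control males 5, 6 and 7 and 6, 29 and 22 in LDP males 8, 10 and 11. In females, Ifnar1, a chain of the receptor, had means of 43.4 ± 3.37 and 46.6 ± 2.78 CPM, and 8 of the 9 tested were higher with 0 at an unadjusted p under 0.05. In males 4 of 9 were higher, 1 of them at an unadjusted p under 0.05 (3.17% of all genes). That gene was Jak2, a kinase of the related interferon gamma receptor (24.5 ± 1.10 and 27.1 ± 0.493 CPM). In recipients 2 of 9 were higher and 0 had such a p. Of the genes that sense microbes upstream of interferon, 12 of 16 were higher in females and 5 of 15 in recipients, with 0 at an unadjusted p under 0.05. In males 4 of 17 were higher, with Irf5 higher at an unadjusted p under 0.05 (3.17% of all genes). Of the others, 3 were lower at such a p (2.06% of all genes), among them the adaptor genes Ticam1 and Myd88.

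Most genes on wider lists of interferon response genes also stood higher in LDP females, and these lists too were drawn up with results of these data known. Of 48 other interferon response genes tested in females, 40 were higher and 7 had an unadjusted p under 0.05, all higher (2.69% of all genes), with a median of 0.14. Ly6e, a membrane protein gene, had means of 252 ± 7.12 CPM in control and 343 ± 7.57 CPM in LDP females, with no overlap (0.45 ± 0.10, adjusted p 0.924 in edgeR's quasi-likelihood test). Ifi203 (0.32 ± 0.10) and Trim30a (0.42 ± 0.14) were separated as well. Of the 48, 7 were separated upward (4.97% of all genes) and 0 downward (4.15%). In males 16 of 53 were higher, with 2 lower at an unadjusted p under 0.05, near the 2.06% of all genes, namely Sp110 (3.88 ± 0.0870 and 3.10 ± 0.165 CPM) and Ifi27 (66.8 ± 11.03 and 53.6 ± 5.54 CPM). In recipients 22 of 47 were higher. Of the 47, 4 were separated upward and 3 downward, where 6.13% and 5.56% of all genes were. Among them were the chemokine gene Cxcl10, upward at means of 1.501 ± 0.379 and 2.67 ± 0.563 CPM, and Slfn8, downward.

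The GTPases induced mainly by interferon gamma, listed with the regulator genes Irf1 and Ciita, are given beside them. In females 19 of 19 were higher, 4 with an unadjusted p under 0.05 (2.69% of all genes), and the median was 0.30. By mouse, the median against the control mean was -0.06 in LDP female 39, 0.26 in LDP female 52 and 0.64 in LDP female 54, so that of mouse 39 lay below the control mean. Gbp9 had means of 8.18 ± 0.823 and 12.9 ± 3.38 CPM, and Irf1 of 43.5 ± 1.60 and 52.3 ± 7.13 CPM. In males 14 of 16 were lower with a median of -0.18, but LDP male 10 had a median of 0.25 where LDP males 8 and 11 had -0.40 and -0.60, and Irf1 had means of 26.6 ± 2.41 and 21.6 ± 2.70 CPM. In recipients 15 of 19 were higher with a median of 0.06 and 0 at an unadjusted p under 0.05. MHC class I genes, which interferons also raise, were higher in 12 of 14 in females with a median of 0.07 and 0 at an unadjusted p under 0.05. In males 7 of 14 were higher. In recipients 9 of 14 were higher and 5 lower, with a median of 0.15. The sum of the list was 2454 to 2852 CPM with control microbiota and 3041 to 3423 CPM with LDP microbiota, without overlap. B2m, the light chain of MHC class I, made up 1400 ± 145 and 1830 ± 58.8 CPM of it and was itself separated. By mouse, the median against the control mean was 0.14, 0.02 and -0.21 in control-microbiota recipients 1, 3 and 7. It was 0.03, 0.16 and 0.25 in LDP-microbiota recipients 2, 5 and 8, so these medians overlapped. Negative regulators of the pathway were higher in 8 of 10 in females, in 2 of 9 in males and in 3 of 9 in recipients. Usp18, also a member, was the 1 gene at an unadjusted p under 0.05, in females (2.69% of all genes).

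Split by the promoter match, the genes gave the following medians, as a description with no test. In females the median log2 change was 0.22 in the 10 genes with it, 0.26 in the 18 without it and 0.30 in the 9 without an entry. In males the medians were -0.20, -0.07 and -0.21, and in recipients 0.17, -0.07 and -0.05.

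The share of immune cells can move such genes in whole liver, and in bulk RNA a lower number of cells of a type and less RNA per cell cannot be told apart. Kupffer cell markers, summed over 12 genes, ran from 748 to 851 CPM in control males and from 702 to 740 CPM in LDP males. Of the 12, 11 were lower, 8 of them at an unadjusted p under 0.05 (2.06% of all genes). The other 1 was higher at such a p (3.17% of all genes). In females the sums overlapped, at 1016 to 1334 CPM in controls and 1074 to 1367 CPM under LDP, with 7 of 12 higher and 0 at such a p. Monocyte markers summed to 71.0 to 77.6 CPM in control males and 60.6 to 66.5 CPM in LDP males, with 7 of 9 lower, and to 85.9 to 113 CPM in control females and 114 to 125 CPM in LDP females, with 8 of 9 higher and 0 at an unadjusted p under 0.05. Both groups of sums were therefore apart in males, and the monocyte sums barely apart in females. Lyz2 alone made up 45.5 ± 2.87 and 39.1 ± 1.64 CPM of the monocyte sums in males, and 59.6 ± 11.6 and 72.4 ± 7.55 CPM in females. By the median log2 of the monocyte markers against the control mean, the male groups overlapped, with LDP male 10 at -0.08 and control male 7 at -0.10. The lowest LDP female, at 0.24, lay just above the highest control female, at 0.21. Siglech, a marker of plasmacytoid dendritic cells, which are strong producers of interferon, was at 0.586 to 1.66 CPM over the 18 mice. It had means of 1.47 ± 0.23 CPM in control and 0.974 ± 0.227 CPM in LDP males (-0.59 ± 0.23, with overlap and an unadjusted p under 0.05), and of 1.20 ± 0.283 and 1.53 ± 0.152 CPM in females. Of the 6 genes of that list tested in males 4 were lower, with a median of -0.52, and of the 5 tested in females 4 were higher, with a median of 0.33. The list summed to 22.1 to 23.7 CPM in control and 22.6 to 27.0 CPM in LDP males, of which Tcf4, a gene that other cells also express, made up 19.5 ± 0.677 and 21.9 ± 1.55 CPM, and to 18.7 to 20.1 and 19.8 to 22.9 CPM in females. In females, 7 of 8 stellate cell markers were higher, 5 at an unadjusted p under 0.05 (2.69% of all genes). Stellate cell markers summed to 436 to 532 CPM in control and 543 to 681 CPM in LDP females. In males they summed to 404 to 467 CPM in controls and to 506, 626 and 274 CPM in LDP males 8, 10 and 11. Mice 11 and 10 also had the lowest and highest medians of the interferon-stimulated genes. LDP male 8 did not follow, with a sum above all controls but a median of those genes of -0.15, below all controls. Mesothelial markers in males were likewise lowest in LDP male 11 (2.37 CPM) and highest in LDP male 10 (10.2 CPM). Mesothelial markers summed to 4.91 to 6.02 CPM in control females and 8.26 to 21.6 CPM in LDP females. In males, B and plasma cell markers summed to 5.65 to 7.26 CPM in controls and 7.31 to 10.7 CPM under LDP. All 7 were higher, 1 at an unadjusted p under 0.05 (3.17% of all genes). That gene was Ighm, at 3.16 ± 0.532 and 5.53 ± 1.17 CPM. The median log2 of these markers against the control mean was -0.04 in LDP male 11, inside the range of the controls. Hepatocyte markers summed to 83171 to 93526 CPM in control and 97326 to 108536 CPM in LDP males. Alb alone made up 63522 ± 5380 and 76468 ± 5449 CPM of these sums. Of the 9 hepatocyte markers tested, 5 were higher and 4 lower, with a median of 0.02. No marker of these lists was at 0 in all 6 mice of a comparison. Whether the cell types behind these marker values have a part in the interferon gene values was not tested.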

How the data were processed

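Liver RNA of 18 mice was measured by RNA-seq, 1 library per mouse, in 6 groups of 3 taken from the sample labels. Extraction used an RNeasy kit and library preparation TruSeq v2, per the labels' protocols. Tools listed in the submitters' processing notes are featureCounts 1.4.3-p1, HTSeq 0.5.3p9, DESeq and STAR 2.3.0e, with mm10 as the build and no role for each tool. The authors deposited raw counts per gene, unpooled, in a male and a female table, and a gene length in bases in the male table, which was used for levels per kb. Of the male identifiers, 37607 (96.6%) matched a GENCODE M21 symbol. Columns matched mice by name, and 0 were left unmatched. No libraries of a group agreed within sampling noise (smallest chi-square per degree of freedom 13.5).

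Each comparison used its own 6 libraries. The counts were fitted in edgeR 4.0.16 (R 4.3.3) with its robust quasi-likelihood F test, after TMM scaling and filterByExpr at a count of 10 and a total of 15, and p-values were Benjamini-Hochberg adjusted over all genes at 0.05. The SE was derived from the F statistic and is approximate. CPM values use TMM-scaled library sizes, and some SDs of 3 mice, such as those of Rsad2 and Oas1a in LDP females and of Mx2 in both female groups, are smaller than counting noise would give. Differences of effects between females and males were fitted over the 20058 names in both tables. The steps were tested on simulated data. Alternatives were DESeq2 1.42.0, other scaling factors, other filters, a fit that is not robust, a shared spread and leaving out each mouse.

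The members and all lists were chosen with earlier results of these data known, so no list was tested and no p was adjusted over a list. Every mouse's value is given for the 8 members of smallest p per comparison and for Irf7, Irf9, Stat2, Isg15, Usp18, Ifih1 and Ddx58, and up to 3 genes of smallest p are named from another list. A further gene named by that rule is not reported here.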

Additional observations from a re-analysis of the deposited data

How the results depend on the processing

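No paired analysis was possible because cage, litter and donor are not stated. The 37 genes kept the direction of their median in females under every alternative run, while the median turned from -0.15 to 0.03 in males without LDP male 11 (range without each mouse -0.34 to 0.03) and from -0.04 to as much as 0.05 in recipients (-0.12 to 0.05). The count of genes called over the whole genome depended on the tool. With DESeq2 it was 15 in females, 42 in males, 28 in recipients, 1 for females minus males and 12 for females minus recipients, against 0, 1, 1, 0 and 0 with edgeR. With no filter on low counts it was 1, 2 and 2 in females, males and recipients. With the spread shared by 12 libraries it was 0 in males and 3 in recipients. Without each mouse in turn it ran from 0 to 1 in females, 0 to 66 in males (66 without LDP male 11), 0 to 4 in recipients, 0 to 3 for females minus recipients and 0 to 1 for females minus males. Members higher at an unadjusted p under 0.05 numbered 7 in females with the shared spread and 8 to 22 without each mouse, against 17. They numbered 0 to 4 in males and 0 to 1 in recipients without each mouse, and 1 in recipients with DESeq2 or the shared spread, against 0. The share of all genes at such a p under these alternatives is not given here, so these counts cannot be set against it. The causes were not tested. The females and recipients have fewer counts per library than the males, and single counts there were as low as 59 for Mx1 in females and 20 for Ifit3 in recipients.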
